A study of Solanum lycopersicum with 12 samples.

Results

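A set of 10 enzyme genes of malate and citrate metabolism was followed in tomato (Solanum lycopersicum) roots exposed to aluminium (Al). They were chosen by gene identifier: 2 malate dehydrogenases, 1 citrate synthase, 2 aconitases, 3 phosphoenolpyruvate (PEP) carboxylases, 1 fumarase and 1 malic enzyme, 10 of the 35768 gene models in the deposited table. The rule used no measured value. The table lists identifiers only, so the enzyme names are those given when the genes were chosen and could not be checked against an annotation here. Messenger RNA of roots from 20-day-old plants was sequenced in 4 groups of 3 biological replicates: slstop1 with 60 µM Al, wild type (WT) with 60 µM Al, slstop1 with 0 µM Al and WT with 0 µM Al. The solution given to all 4 groups was at pH 4.7, so the plants without Al were also at acid pH. The labels name slstop1 as a mutant, and the sample titles mark its libraries KO, read here as knockout. They do not say how it was made, whether it is a single line, or whether plants were pooled.

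Malate and citrate are carboxylic acids that bind Al ions, and roots of many species release them into the soil as a defence against Al. PEP carboxylase makes oxaloacetate in the cytosol, malate dehydrogenase interconverts oxaloacetate and malate, and citrate synthase joins oxaloacetate to acetyl-CoA to give citrate. Aconitase turns citrate into isocitrate, fumarase makes malate from fumarate, and malic enzyme splits malate to pyruvate and carbon dioxide. STOP1 is a zinc finger transcription factor which, in Arabidopsis, is needed for tolerance of acid pH and Al and for expression of a malate channel gene of the root.

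Levels are in FPKM, fragments scaled to transcript length and library size, so that levels of different genes can be compared per length. Absolute sequencing depth is unknown from such values. The spacing of low values put the deepest library at 1.45 times the shallowest. The targeted gene SlSTOP1 (Solyc11g017140.2, chromosome 11) ranged over 27.6 to 30.0 FPKM in slstop1 with Al against 80.8 to 88.6 FPKM in WT with Al, and over 33.5 to 39.8 FPKM in slstop1 without Al against 56.0 to 79.2 FPKM in WT without Al; the genotypes did not overlap at either dose. Replicate 3 of WT without Al stood apart: on average it correlated with the other libraries of its group at a Spearman rho of 0.918, lower than any other library did, and it is named below where leaving it out moves a result. The 10 most abundant genes held 10.8 to 11.7% of the summed FPKM in slstop1 with Al, 6.87 to 8.20% in WT with Al, 5.42 to 6.11% in slstop1 without Al and 5.08 to 6.60% in WT without Al. A larger share for abundant genes lowers every other FPKM value, and its part in the results below was not tested. In whole roots, fewer cells of a type and less RNA per cell cannot be told apart.

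The genes fell into 2 sets of levels. A group of 5 stood above 50 FPKM in every library: citrate synthase, both aconitases, fumarase and malic enzyme, between 54.9 and 595 FPKM. The remaining 5, all the malate dehydrogenases and PEP carboxylases chosen, never reached 4 FPKM. In slstop1 with Al, malic enzyme came first (mean 345 FPKM), then aconitase 12g005860 (306), citrate synthase (272), aconitase 07g052350 (166) and fumarase (57.5), and only the first pair overlapped. In WT with Al, aconitase 12g005860 came first (427 FPKM) and overlapped malic enzyme (349.9), followed by citrate synthase (230.5), which overlapped aconitase 07g052350 (187), and by fumarase (59.9). Without Al, malic enzyme led in slstop1 (262 FPKM) and in WT (362 FPKM) and stood clear of the next gene. Behind it the aconitases and citrate synthase overlapped, at 126 to 141 FPKM on average in slstop1 and 130.4 to 154 FPKM in WT, and fumarase was lowest of the 5. Citrate synthase thus passed aconitase 07g052350 in mean level with Al in both genotypes, and their libraries stayed apart in slstop1 and overlapped in WT. In every group fumarase lay above at least 86.7% of the tested genes, and malic enzyme above at least 96.8%.

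**Figure D1:**
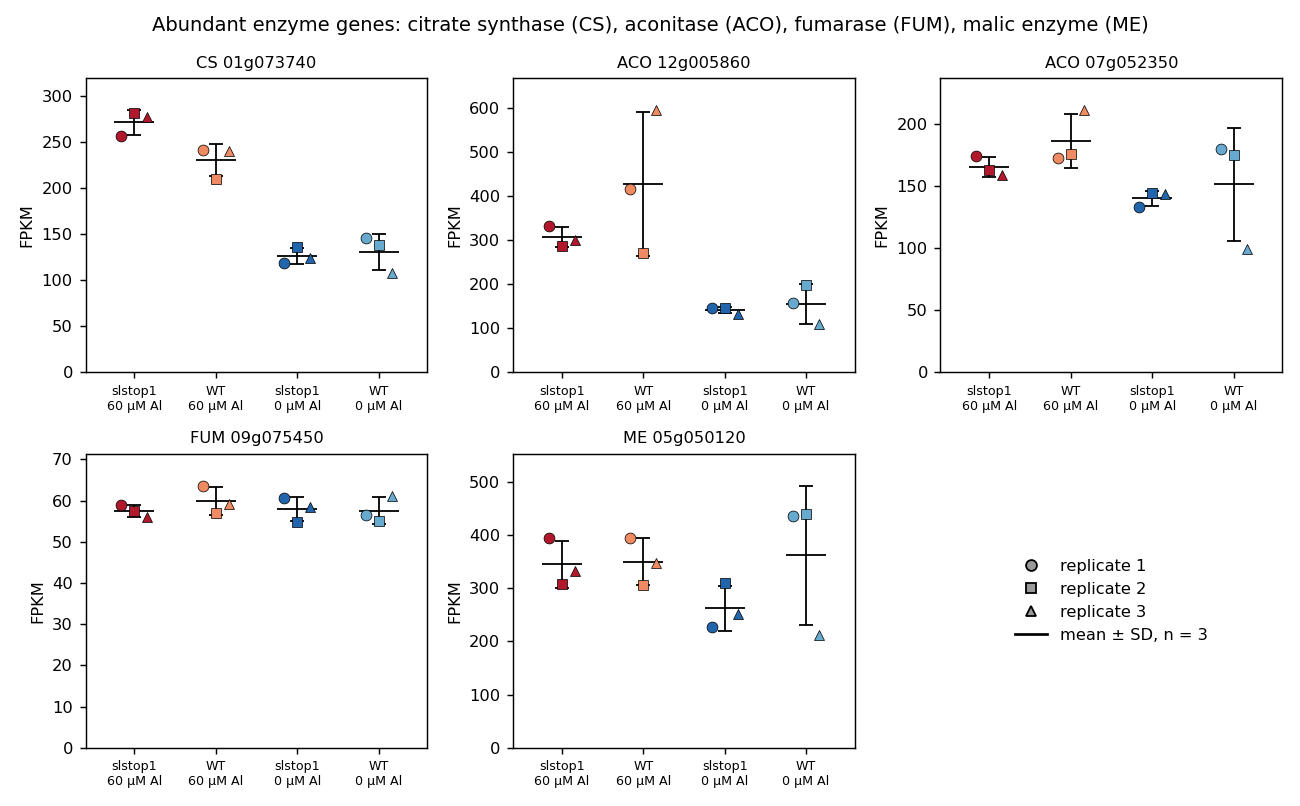
FPKM of the 5 abundant genes in each of the 12 libraries (points; circle, square and triangle are replicates 1, 2 and 3), with mean ± SD (n = 3) per group. Citrate synthase and aconitase 12g005860 lie higher with 60 µM Al than with 0 µM Al in both genotypes, fumarase lies near 58 FPKM throughout on this scale, and replicate 3 of WT without Al is the lowest WT library for 4 of the 5 genes.

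With Al, 3 of the 7 members that passed the filter on low values (at least 1 FPKM in at least 3 libraries) were called in slstop1, 2 higher and 1 lower. Over all 15903 tested genes, 66.8% were called in that comparison, 21.3% higher and 45.5% lower. In WT, 3 of the 7 were called as well, 2 higher and 1 lower, where 60.9% of all tested genes were called, 21.9% higher and 39% lower. The lower member was malate dehydrogenase 09g090140 in slstop1 and PEP carboxylase 04g006970 in WT. Both passed the filter through libraries without Al, where they are higher. The filter favours a lower call for such genes, so the lower counts are not read as a result about the members. A call is an adjusted p under 0.05 from limma, a linear model fitted over all tested genes on log2(FPKM + 1) with Benjamini-Hochberg adjustment. These shares of members are below those of all genes, and the order turned with median-of-ratios scaling, which centres the bulk of genes: 6 of 7 members were then called in slstop1, where 67.2% of all genes were, and 5 of 7 in WT, where 60.7% were. With only the slstop1 libraries fitted, 6 of 7 were called, where 72% of all genes were. Of all calls, 68.1% were lower in slstop1 and 64.1% in WT; with median-of-ratios scaling these shares were 53.1% and 53.4%, and with quantile normalisation 47.8% and 51.5%. Counted without a test over all 10 members, the groups with and without Al did not overlap for 3 higher and 3 lower members in slstop1, where 75.9% of tested genes did not (26.2% higher, 49.8% lower), and for 2 higher members in WT, where 62.7% did not (22.7% higher, 40% lower). The shares cover genes that passed the filter. The lower members in slstop1 include PEP carboxylase 07g062530, which did not pass it. The 7 tested members had a median log2 difference of 0.24 in slstop1 and 0.06 in WT. The medians over all tested genes were -0.46 and -0.27. Leaving out PEP carboxylase 04g006970, whose groups with Al are listed at 0, the other 6 had a median of 0.32 in slstop1 and 0.20 in WT. These medians describe a few genes chosen with earlier results of these data known.

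Citrate synthase (Solyc01g073740.3, chromosome 1), the enzyme that forms citrate, rose with Al in both genotypes. It measured 256, 282 and 277 FPKM in slstop1 with Al, against 118, 136 and 124 FPKM in slstop1 without Al. In WT it was at 241, 210.3 and 240.1 FPKM with Al, against 145, 138 and 108 FPKM without Al. All 6 libraries with Al lay above all 6 without Al. The log2 difference was 1.10 ± 0.133 (SE; 2.15-fold; limma adjusted p = 2.35e-05) in slstop1 and 0.83 ± 0.133 (1.77-fold; adjusted p = 0.000273) in WT, and both calls held in all 21 alternative settings tried. Without replicate 3 of WT without Al, the WT difference was 0.70 (limma adjusted p = 0.000288). Relative to the median of all tested genes the differences were larger, 1.56 in slstop1 and 1.10 in WT.

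Of the aconitases, which convert citrate onwards to isocitrate, Solyc12g005860.2 (chromosome 12) rose with Al in both genotypes. It stood at 332, 287 and 299 FPKM in slstop1 with Al, against 145, 144 and 133 FPKM without Al. In WT it stood at 416, 270.5 and 595 FPKM with Al, against 158, 197 and 108 FPKM without Al. The groups did not overlap in either genotype, and the WT libraries with Al were spread far more widely than those of slstop1 with Al. Its log2 difference was 1.11 ± 0.270 (SE; 2.16-fold; limma adjusted p = 0.00347) in slstop1 and 1.43 ± 0.270 (2.70-fold; adjusted p = 0.000808) in WT, called in all 21 alternatives for each. Without replicate 3 of WT without Al, the WT difference was 1.1996 (limma adjusted p = 0.00274).

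The other aconitase, Solyc07g052350.3 (chromosome 7), had smaller differences. It measured 174.5, 163 and 159 FPKM in slstop1 with Al, against 133, 144 and 144 FPKM without Al, and the groups just failed to overlap. In WT it was at 173, 176 and 212 FPKM with Al, against 180.1, 175 and 99.0 FPKM without Al, which overlapped. Neither difference passed the test (log2 0.24 ± 0.202, limma adjusted p = 0.322, in slstop1; 0.34 ± 0.202, adjusted p = 0.162, in WT). Without the low replicate 3 of WT without Al, the WT difference was 0.07. Both were called when the columns were first scaled by median of ratios (log2 0.71, limma adjusted p = 0.00225, in slstop1; 0.60, adjusted p = 0.00727, in WT). In slstop1 it was also called when only the 6 slstop1 libraries were fitted (limma adjusted p = 0.0273).

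The ratio between the aconitases does not depend on a factor applied to a whole library. Solyc12g005860.2 stood at 1.90, 1.76 and 1.89 times the FPKM of Solyc07g052350.3 in slstop1 with Al, against 1.09, 1.002 and 0.923 times in slstop1 without Al. In WT the ratio was 2.41, 1.54 and 2.81 with Al, against 0.875, 1.13 and 1.10 without Al. The aconitases were thus near equal in all 6 libraries without Al and unequal in all 6 with Al, whatever the genotype. These are values within a library, with no test. How the authors divided reads between similar genes is not given in the sources used here.

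Fumarase (Solyc09g075450.3, chromosome 9), which makes malate within the tricarboxylic acid cycle, varied little. It measured 58.9, 57.5 and 56.0 FPKM in slstop1 with Al, against 60.5, 54.9 and 58.4 FPKM without Al. In WT it was at 63.6, 57.0 and 59.2 FPKM with Al, against 56.5, 55.1 and 61.2 FPKM without Al. No pair of groups was apart, and the coefficient of variation within a group was 2.46 to 5.67%. On the FPKM scale its log2 difference with Al was -0.01 (95% interval -0.23 to 0.21; limma adjusted p = 0.936) in slstop1 and 0.06 (-0.17 to 0.28; adjusted p = 0.649) in WT. After median-of-ratios scaling the direction in slstop1 turned and both were called higher, at 0.46 (limma adjusted p = 0.00667) in slstop1 and 0.31 (adjusted p = 0.0493) in WT. With quantile normalisation they were 0.05 and 0.01 and not called. By rank it kept its place, above 87.1% of tested genes in slstop1 with Al against 86.7% in slstop1 without Al, and above 86.8% in WT at both doses. Its log2 difference stood 0.45 above the median difference of all genes in slstop1 and 0.33 above it in WT.

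**Figure D2:**
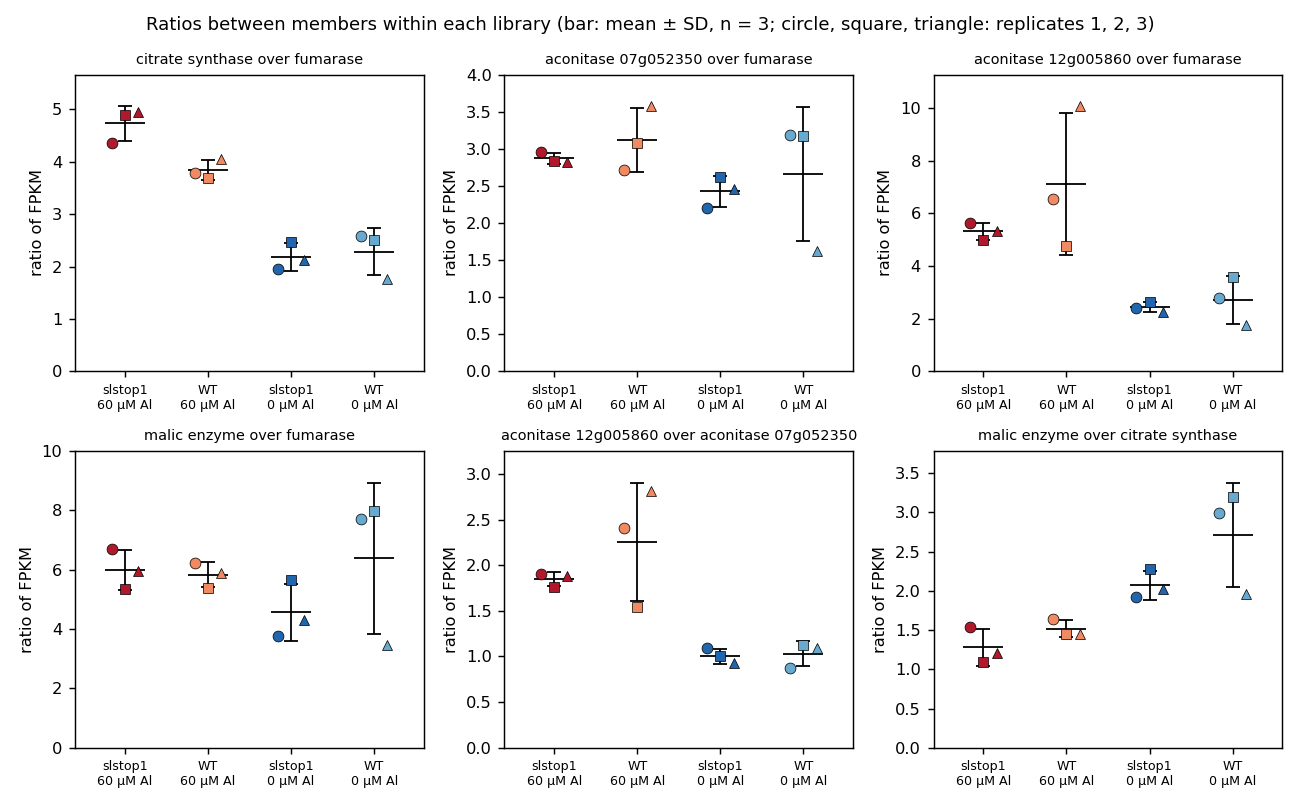
Ratios of FPKM between pairs of members within each library, by group, with mean ± SD (n = 3); such ratios do not change when a library is multiplied by a single factor. Citrate synthase over fumarase and aconitase 12g005860 over aconitase 07g052350 are higher in all libraries with 60 µM Al than in any with 0 µM Al.

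Set against fumarase in the same library, citrate synthase was at 4.35 to 4.94 times its level in slstop1 with Al, against 1.95 to 2.47 times in slstop1 without Al. In WT the ratio was 3.69 to 4.06 with Al, against 1.77 to 2.58 without Al. With Al, the slstop1 libraries lay above the WT libraries in this ratio. Aconitase 12g005860 was at 4.99 to 5.63 times the fumarase level in slstop1 with Al, against 2.27 to 2.63 times without Al, and at 4.75 to 10.1 times in WT with Al, against 1.77 to 3.58 times without Al.

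Malic enzyme (Solyc05g050120.3, chromosome 5), which consumes malate, had the highest level of the members averaged over all 12 libraries, though not in WT with Al, and no difference with Al that passed the test. It measured 395, 308 and 333 FPKM in slstop1 with Al, against 227, 309 and 251 FPKM without Al. In WT it was at 395, 306 and 348 FPKM with Al, against 436, 440.0 and 211 FPKM without Al. Replicate 3 of WT without Al, at 211 FPKM, lay far under the other two of its group and beneath every slstop1 library. The log2 difference with Al was 0.40 ± 0.260 (SE; limma adjusted p = 0.199) in slstop1 and 0.02 ± 0.260 (adjusted p = 0.959) in WT.

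Of the 5 abundant genes, malic enzyme had the WT difference that moved most without that library. Without it, the WT difference with Al was -0.33 (limma adjusted p = 0.107). That in slstop1 was then called (0.40, adjusted p = 0.0327), with the same log2 difference and a smaller residual spread. The slstop1 difference was also called with median-of-ratios scaling (0.87, limma adjusted p = 0.0047) and when only the slstop1 libraries were fitted (adjusted p = 0.0475). Per unit of citrate synthase, malic enzyme was at 1.09 to 1.54 in slstop1 with Al, against 1.92 to 2.28 without Al, and at 1.45 to 1.64 in WT with Al, against 1.96 to 3.19 without Al. Neither genotype's groups overlapped in this ratio.

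**Figure D3:**
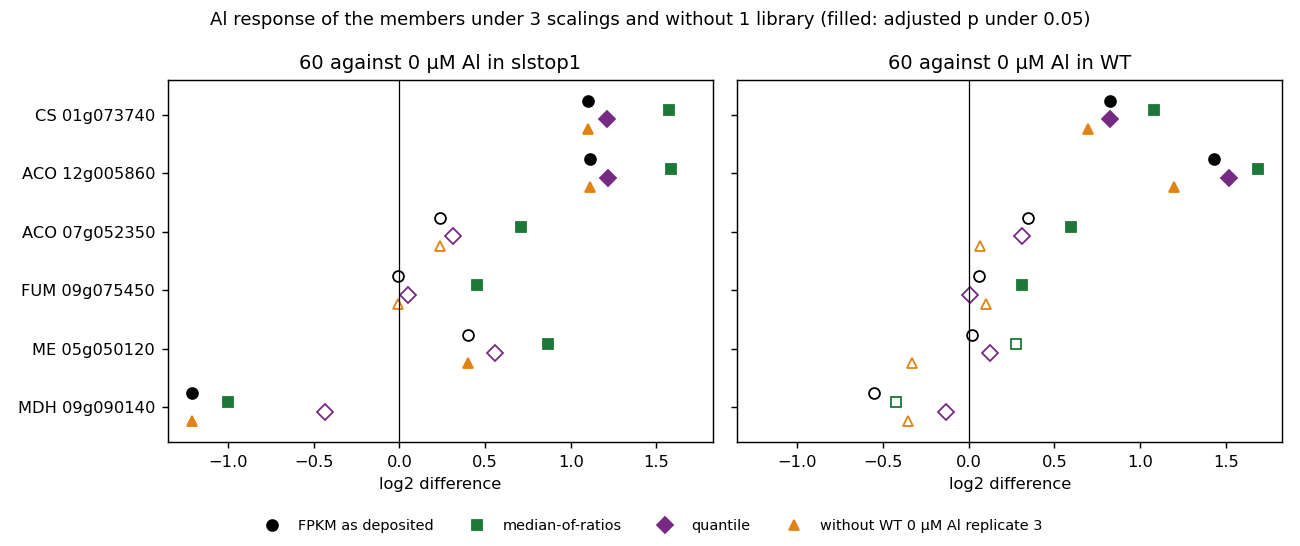
Fitted log2 difference between 60 and 0 µM Al for 6 members, in slstop1 (left) and WT (right), under 3 scalings and without replicate 3 of WT without Al; filled symbols had an adjusted p under 0.05. Citrate synthase and aconitase 12g005860 are called under all of them in both genotypes. Aconitase 07g052350 and fumarase are called under some in both genotypes. Malic enzyme and malate dehydrogenase 09g090140 are called under some in slstop1 and under none in WT.

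PEP carboxylase, the usual entry of carbon into cytosolic oxaloacetate and so into malate, was at or near 0 for all 3 genes chosen. Solyc12g014250.2 (chromosome 12) was listed at 0 in all 12 libraries. Solyc07g062530.3 (chromosome 7) stayed under 0.5 FPKM, at 0.02, 0.04 and 0.04 FPKM in slstop1 with Al against 0.19, 0.26 and 0.19 FPKM without Al, and at 0.10, 0.27 and 0.10 FPKM in WT with Al against 0.26, 0.47 and 0.21 FPKM without Al. Both of these genes stayed under the filter and were not tested with the others. Fitted with no filter, Solyc07g062530.3 was called lower with Al in slstop1 (limma adjusted p = 0.0408) and not in WT (adjusted p = 0.108), at levels where few fragments decide a value.

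The third PEP carboxylase, Solyc04g006970.3 (chromosome 4), was listed at 0 in all 6 libraries with Al. Without Al, slstop1 libraries held 1.51, 1.81 and 0.16 FPKM, and WT libraries 1.81, 0 and 3.51 FPKM. Since a WT library without Al was also at 0, the WT groups overlapped. The gene passed the filter only through libraries without Al, 2 in each genotype, which favours a lower call. The difference was called in WT (limma adjusted p = 0.0444) and not in slstop1 (adjusted p = 0.0821), and neither call was stable: 13 of 20 alternatives ended that in WT (limma adjusted p between 0.0527 and 0.172 in these 13, and as low as 0.00131 in the others), and 5 of 20 made a call in slstop1. No fold is given against a group at 0. Whether the zeros of this gene are failed estimates was not tested. Of the 35768 gene models, 328 had a 0 and a value of at least 10 FPKM in replicates of the same group. Solyc04g006970.3, at 3.51 FPKM or less, could not enter that count, so the count does not bear on its zeros.

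Malate dehydrogenase, which makes and uses malate in most cells, was likewise barely measured by the genes chosen. Solyc07g062650.3 (chromosome 7) was listed at 0 in all 6 libraries with Al, while those without Al held 0.24, 0.26 and 0 FPKM in slstop1 and 0, 0 and 0.44 FPKM in WT. These zeros are given as listed, and absence of the transcript and a failed estimate cannot be told apart here. Solyc09g090140.3 (chromosome 9) measured 0.22, 0.75 and 0.20 FPKM in slstop1 with Al, against 2.51, 1.32 and 2.88 FPKM without Al. The slstop1 groups did not overlap, and the fall passed the test (log2 -1.21 ± 0.337 SE on the log2(FPKM + 1) scale, which understates low genes; limma adjusted p = 0.00797). In WT it was at 0.43, 0.39 and 1.98 FPKM with Al, against 1.07, 1.58 and 2.50 FPKM without Al, which overlapped and did not pass (log2 -0.55 ± 0.337, limma adjusted p = 0.178). Solyc09g090140.3 reached 1 FPKM in 3 of 3 libraries without Al in each genotype. With Al it did so in 0 of 3 in slstop1 and 1 of 3 in WT. It thus passed the filter through the groups where it is high, which favours a lower call. The call in slstop1 therefore adds no separate support for the fall.

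The malate dehydrogenase calls moved with the settings. The fall in slstop1 held in 19 of 20 alternatives and was lost with quantile normalisation (log2 -0.44, limma adjusted p = 0.336). In WT the difference was called only without replicate 3 of WT with Al (-0.91, adjusted p = 0.0264), the library at 1.98 FPKM. Of all gene models in the table, 50.2% were under 1 FPKM in every library, and 29.9% were at 0 throughout.

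**Figure D4:**
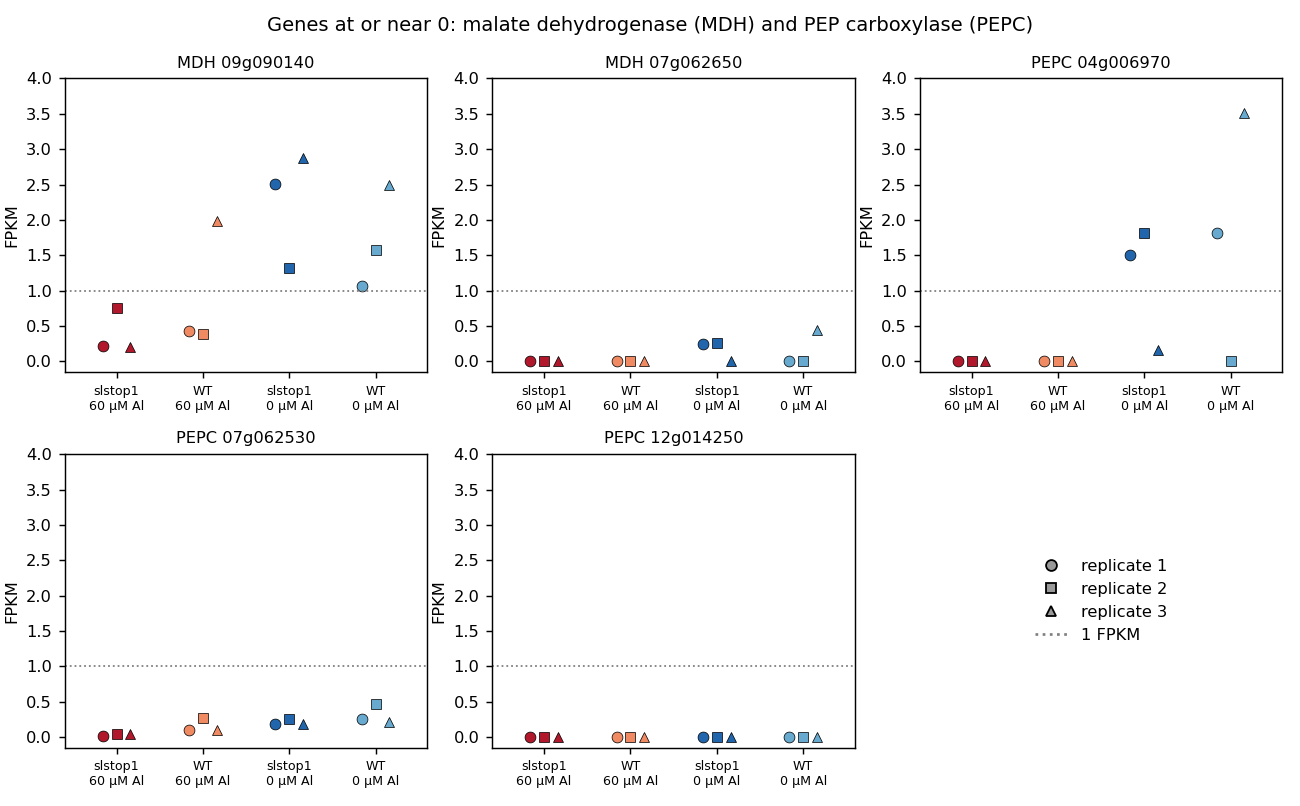
FPKM of the 5 genes at or near 0 in each of the 12 libraries (circle, square and triangle are replicates 1, 2 and 3), with a dotted line at 1 FPKM. With 60 µM Al 1 value lies above the line, malate dehydrogenase 09g090140 in replicate 3 of WT, and 3 of the genes are listed at 0 in all 6 libraries.

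Between genotypes, no member was called at either dose. With Al, 0 of the 7 tested members had a limma adjusted p under 0.05 between slstop1 and WT, where 9.24% of all tested genes were called. An unadjusted limma p under 0.05 was found for 0 of the 7. That count was 1 with median-of-ratios scaling, with quantile normalisation and with only the libraries compared. It was also 1 without replicate 2 of WT with Al and without replicate 3 of WT without Al. Citrate synthase came nearest: its slstop1 libraries with Al, at 256 to 282 FPKM, lay above those of WT with Al, at 210.3 to 241 FPKM, and the log2 difference was 0.24 (95% interval -0.06 to 0.53; limma adjusted p = 0.309). It was called with median-of-ratios scaling alone (0.45, adjusted p = 0.0415; range over the alternatives 0.0415 to 0.566). Over all 10 members the genotypes did not overlap for citrate synthase, higher in slstop1, and for PEP carboxylase 07g062530, lower in slstop1. The latter did not pass the filter. Among all tested genes 34.7% did not overlap, 7.85% higher and 26.8% lower, and of the genes called 87.9% were lower (63.1% with median-of-ratios scaling, 64.1% with quantile normalisation). Aconitase 12g005860 averaged 306 ± 23.0 FPKM in slstop1 with Al, against 427 ± 163 FPKM in WT with Al (SD, n = 3 each), a log2 difference of -0.41 (-1.004 to 0.18; limma adjusted p = 0.397). For malic enzyme the difference was -0.02 (-0.59 to 0.55) and for fumarase -0.06 (-0.28 to 0.16); median-of-ratios scaling turned them to 0.19 and 0.15, and quantile normalisation turned fumarase to 0.03, all uncalled.

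Without Al, 0 of the 7 members were called by limma and 0 had an unadjusted p under 0.05 (2 without replicate 3 of WT, 1 without replicate 2), where 0.176% of all tested genes were called, and 0 of the 10 had groups that did not overlap, against 8.16% of tested genes. Malic enzyme averaged 262 ± 42.4 FPKM in slstop1 without Al (SD, n = 3), against 362 ± 131 FPKM in WT without Al (n = 3), a log2 difference of -0.40 (95% interval -0.97 to 0.17; limma adjusted p = 1). Without replicate 3 of WT the WT mean was 438 FPKM, and the difference was -0.75 (adjusted p = 0.119). Citrate synthase (-0.04, interval -0.33 to 0.25) and fumarase (0.01, -0.21 to 0.23) had the narrowest intervals.

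Whether the Al response differed between genotypes was asked by the interaction, which subtracts the WT response from the slstop1 response. It was called by limma for 0 of the 7 members, where 1.02% of all tested genes were called. An unadjusted p under 0.05 was found for 0 of the 7 (2 without replicate 3 of WT without Al, 1 with median-of-ratios scaling). Of the calls over all tested genes 95.1% were negative (84.0% with median-of-ratios scaling, 74.6% with quantile normalisation). For citrate synthase the interaction was 0.28 (95% interval -0.14 to 0.69; limma adjusted p = 0.568) and for aconitase 12g005860 it was -0.32 (-1.16 to 0.52; adjusted p = 0.791). Without replicate 3 of WT without Al they were 0.41 and -0.09, uncalled. For malic enzyme it was 0.38 (-0.43 to 1.19), or 0.73 (adjusted p = 0.102) without replicate 3 of WT without Al. The intervals are too wide to show equal responses. SlSTOP1 itself differed between genotypes by -1.52 with Al (limma adjusted p = 0.000172).

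**Figure D5:**
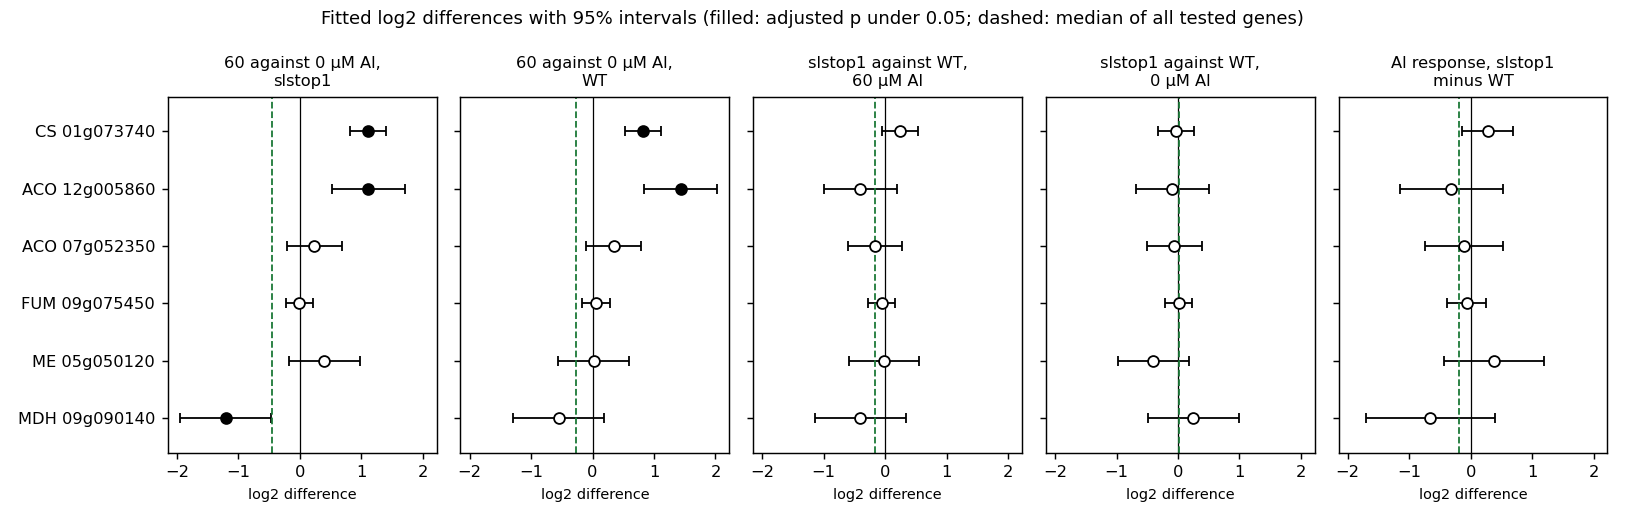
Fitted log2 differences on log2(FPKM + 1) with 95% intervals for 6 members in the 5 comparisons; filled points had a limma adjusted p under 0.05 and the dashed line is the median of all tested genes. Filled points are found in the Al comparisons alone: citrate synthase and aconitase 12g005860 in both genotypes, and malate dehydrogenase 09g090140 in slstop1.

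The 12 libraries differ in Al dose and genotype, so a correlation across them also holds differences between groups. Citrate synthase was most like aconitase 12g005860 (Pearson r = 0.88 of log2(FPKM + 1)), and aconitase 07g052350 was most like malic enzyme (r = 0.80). Both genes of the latter pair were lowest in replicate 3 of WT without Al (99.0 and 211 FPKM). Their r was not computed without that library, and the causes of the correlations were not tested. Fumarase resembled no member closely, its highest r being 0.18. Malate dehydrogenase 09g090140 ran against citrate synthase (r = -0.79). Outside the 10, the tested genes most like malic enzyme, the member with the highest mean, were Solyc06g060850.3 (r = 0.91) and Solyc09g010150.3 (r = 0.90). Solyc06g060850.3 averaged 28.5 FPKM in slstop1 with Al, 28.2 FPKM in WT with Al, 25.4 FPKM in slstop1 without Al and 28.6 FPKM in WT without Al. The table pairs neither with a name.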

How the data were processed

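The deposited values were read as FPKM made by the authors. The table's header names no unit, and the 12 library columns sum to between 696287 and 719916. Cufflinks, StringTie, HISAT2 and TopHat2 were used, per the submitters' processing notes, which give no roles; the genome build is not given in the sources used here. Groups and replicate numbers come from the sample titles. The labels call the replicates biological.

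Values were transformed as log2(FPKM + 1), and genes reaching 1 FPKM in 3 or more libraries (15903) were fitted with limma 3.58.1 in R 4.3.3 (group means over all 12 libraries, eBayes with a trend, 8 residual degrees of freedom). Tests were two-sided, called at a Benjamini-Hochberg adjusted p under 0.05 over all genes tested, and intervals are for single genes. The fit was tested on simulated data with known changes. Relative depth came from ratios of values between 0.3 and 4 FPKM, and the fitted depths matched 46 of 66 library pairs to within 0.03 on the log2 scale. No library duplicated another: at least 95.5% of tested genes differed between any pair.

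The members, their list and the tests were chosen with earlier results of these data known. All 10 members are named; the genes most like malic enzyme were picked by Pearson r. The reference gene table at hand (SLM_r2.1) held 0 Solyc identifiers, so sequences, other genes of the pathway and markers of root cell types were not analysed here. Each result was recomputed with quantile normalisation, with median-of-ratios scaling, with other pseudocounts (0.1 and 5), without the filter or with a filter on the mean (5 FPKM), with eBayes lacking the trend, with a block for the replicate number, on the compared libraries alone, and with each library left out. Figures were drawn with matplotlib 3.10.9 in Python 3.11.15.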

Additional observations from a re-analysis of the deposited data

How the results depend on the processing

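Of 104 counts of members called under the alternatives, 99 were within 1.5 times the reported count. For Al in slstop1 the count of 3 became 6 with median-of-ratios scaling, 6 with only the libraries compared and 5 without replicate 3 of WT without Al, settings in which 67.2%, 72% and 71.1% of all tested genes were called. For Al in WT the count of 3 became 5 with median-of-ratios scaling (60.7% of all genes), and between slstop1 and WT with Al the count of 0 became 1. Leaving out a library gave 3 to 5 for Al in slstop1, 2 to 3 for Al in WT, and 0 to 0 for the other comparisons. Fumarase in slstop1 turned to 0.46 with median-of-ratios scaling. That scaling moved the median log2 difference of all tested genes to -0.09 in slstop1 and -0.07 in WT, which adds to each member's value; the remaining causes were not tested. Of 718 member values, 14 lost and 14 gained a call; 34 changed sign (values within 1e-06 of 0 apart), 1 of them with a call. With the replicate block the counts were 3 for Al in slstop1, 2 for Al in WT (PEP carboxylase 04g006970 lost) and 0 for the rest. None of 18 same-number pairs correlated over 0.1 (r from -0.24 to 0.09), and 4 of 36 times a library was most like its own number in another group. These correlations run over all tested genes, so they cannot show whether the numbers share an effect on few genes. Over all genes the counts called ran from 580 to 2401 between genotypes with Al (1469 reported), from 7 to 48 without Al (28) and from 53 to 357 for the interaction (163), the highest each time without replicate 3 of WT without Al.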

Other observations

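With Al, replicates of WT were spread more widely than those of slstop1 for 4 of the 5 abundant genes. The coefficient of variation of aconitase 12g005860 was then 7.52% in slstop1 and 38.1% in WT (n = 3 each), and that of citrate synthase was 4.96% in slstop1 and 7.57% in WT. The exception was malic enzyme, at 12.9% in slstop1 and 12.7% in WT. Without Al, each of the 5 genes was also spread more widely in WT, in a group that includes the low replicate 3. For aconitase 12g005860 the coefficient was then 5.01% in slstop1 and 28.8% in WT. Over all tested genes with Al, the mean Spearman rho with the own group was 0.935 to 0.946 in WT and 0.961 to 0.965 in slstop1. The wider spread is thus not particular to Al or to these genes. The difference in spread was not tested.

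The 10 genes together summed to 1146 ± 62.0 FPKM in slstop1 with Al and 1255 ± 220 FPKM in WT with Al, against 731 ± 54.1 FPKM in slstop1 without Al and 860 ± 230 FPKM in WT without Al (SD, n = 3). Without replicate 3 of WT without Al, the other two libraries of that group summed to 979 and 1007 FPKM. The malate dehydrogenases and PEP carboxylases contributed 0.24 to 0.79 FPKM of that sum in slstop1 with Al, 0.53 to 2.08 FPKM in WT with Al, 3.23 to 4.45 FPKM in slstop1 without Al and 2.05 to 6.66 FPKM in WT without Al. The sum therefore describes the 5 abundant genes.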
